A study of Arabidopsis thaliana with 4 samples.

Results

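Transcripts of 43 genes for proteins of the cytosolic ribosome were followed in Arabidopsis thaliana seedlings with overexpression or mutation of AtC3H17, which encodes a zinc finger protein of the CCCH type. The 43 loci came from a list of large subunit, small subunit and stalk proteins and were matched to array probes through RefSeq transcript accessions. All 43 were measured, among 20461 genes with a measured value. They comprised 19 genes of the large subunit, 18 of the small subunit and 6 of the stalk, in 26 protein families, of which 13 had several members. The reference table names the subunit of 22 of them in its symbols or synonyms. For the other 21, the family is the usual one for the locus and was not checked against a table here.

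Whole seedlings of the Col-0 ecotype were grown without treatment on agar at 22 °C in short days, with a light period of 8 h and a dark period of 16 h, and total RNA was taken 14 days after germination. The 3 groups were AtC3H17 OX, the overexpressing transgenic plants, on 2 arrays, atc3h17-1, by its name a mutant of that gene, on 1 array, and WT, the wild type, on 1 array. The promoter that drives the transgene, the kind of mutant allele, the number of lines and the number of pooled plants are not given in the sources used here. The submitters' design sets the 2 AtC3H17 OX samples against WT.

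The eukaryotic ribosome joins a small subunit, which reads the mRNA, to a large subunit, which makes the peptide bond. Each subunit is built from ribosomal RNA and many different proteins, and plants keep several gene copies for most of these proteins. The stalk is a flexible arm of the large subunit, made of P proteins, that recruits the translation factors that use GTP. In plants, ribosomal protein genes are known for strong expression in meristems and young leaves, and mutants of single copies often have pointed or narrow leaves.

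Values are levels on a log2 scale relative to the 75th percentile of the signal on the same array, so that 0 marks that percentile, and a gene's level is the mean over its probes. A difference of -1 therefore stands for a halved signal. Levels were compared between arrays for the same gene and never between genes, since probes differ in brightness. The summed signals of marker genes were also compared only between arrays, but genes with bright probes weigh most in them. The 2 AtC3H17 OX arrays differed by a median of 0.0316 over all genes, against an SD between repeated spots of 0.0882 on the first and 0.0643 on the second, and by a median of 0.0275 over the 43 genes. On each array this SD rests on 16 repeated probes. Of all genes, 238 were at least 2-fold apart between the 2 AtC3H17 OX arrays. Between separate probes of a gene, their difference had a correlation of 0.005 over 6058 genes, which are not independent replicates, against 0.54 to 0.60 for arrays of different genotypes. They were counted as 1 sample, so that each genotype had 1 sample, no spread between plants was measured and no test was made. A gene was called lower or higher at 1.5-fold or more, on both AtC3H17 OX arrays where these were involved.

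The WT array was noisier than the others, with an SD of 0.206 between repeated spots and a local trend over its surface of 0.225 (root mean square), against 0.0919 to 0.0966 on the other 3 arrays. It entered both comparisons with WT, which therefore share its error, while AtC3H17 OX against atc3h17-1 does not use it. The 75th percentile of the signal lay between 3273 and 3487, 72.0% to 74.5% of spots were well above background and no spot was saturated. The locus AT2G02160, taken as AtC3H17 from general knowledge, had 3 probes. In AtC3H17 OX over WT they stood at 4.57-fold, 5.60-fold and 0.981-fold. In atc3h17-1, the first and the last of these were not well above background and were at least 42.7-fold and at least 502-fold lower than in WT, and the other was 1.41-fold of WT.

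All 43 ribosomal protein genes had a lower mean level in AtC3H17 OX than in WT. The median difference was -0.70, or 0.617-fold, against -0.03 over all genes. By size, 28 of the 43 genes were at least 1.5-fold lower on both arrays, against 9.69% of all genes, and 0 were at least 1.5-fold higher, against 10.1%. Only 1 of the 43, AT2G19730, was at least 2-fold lower on both arrays, against 2.78% of all genes, and 0 were at least 2-fold higher, against 4.37%. Below the WT level on both AtC3H17 OX arrays were 42 of the 43, against 50.5%, and above it on both were 0, against 44.2%. In RNA from whole seedlings, fewer cells of a type and less RNA per cell cannot be told apart.

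In atc3h17-1, 41 of the 43 genes were below the WT level, against 53.0% of all genes, and 2 were above it, against 47.0%. The median difference was -0.38, or 0.767-fold, against -0.02 over all genes. At least 1.5-fold lower were 5 genes, against 8.65% of all genes, which as a share of the 43 was 11.6%, and 0 were at least 1.5-fold higher, against 8.89%. At 2-fold, 0 were lower and 0 higher, against 4.24% and 4.34% of all genes. The count of 5 was 11 with normexp background correction, against 6.10% of all genes in that setting. It was 3 after quantile normalization, against 8.30%, and 3 after removal of the position trend, against 8.11%. The 5 genes were AT2G19730, P40, RPS6, RPS5B and AT4G34670, and all but the last were also at least 1.5-fold lower in AtC3H17 OX. Being at least 1.5-fold lower in both lines was thus true of 4 members, against 4.42% of all genes.

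**Figure D1:**
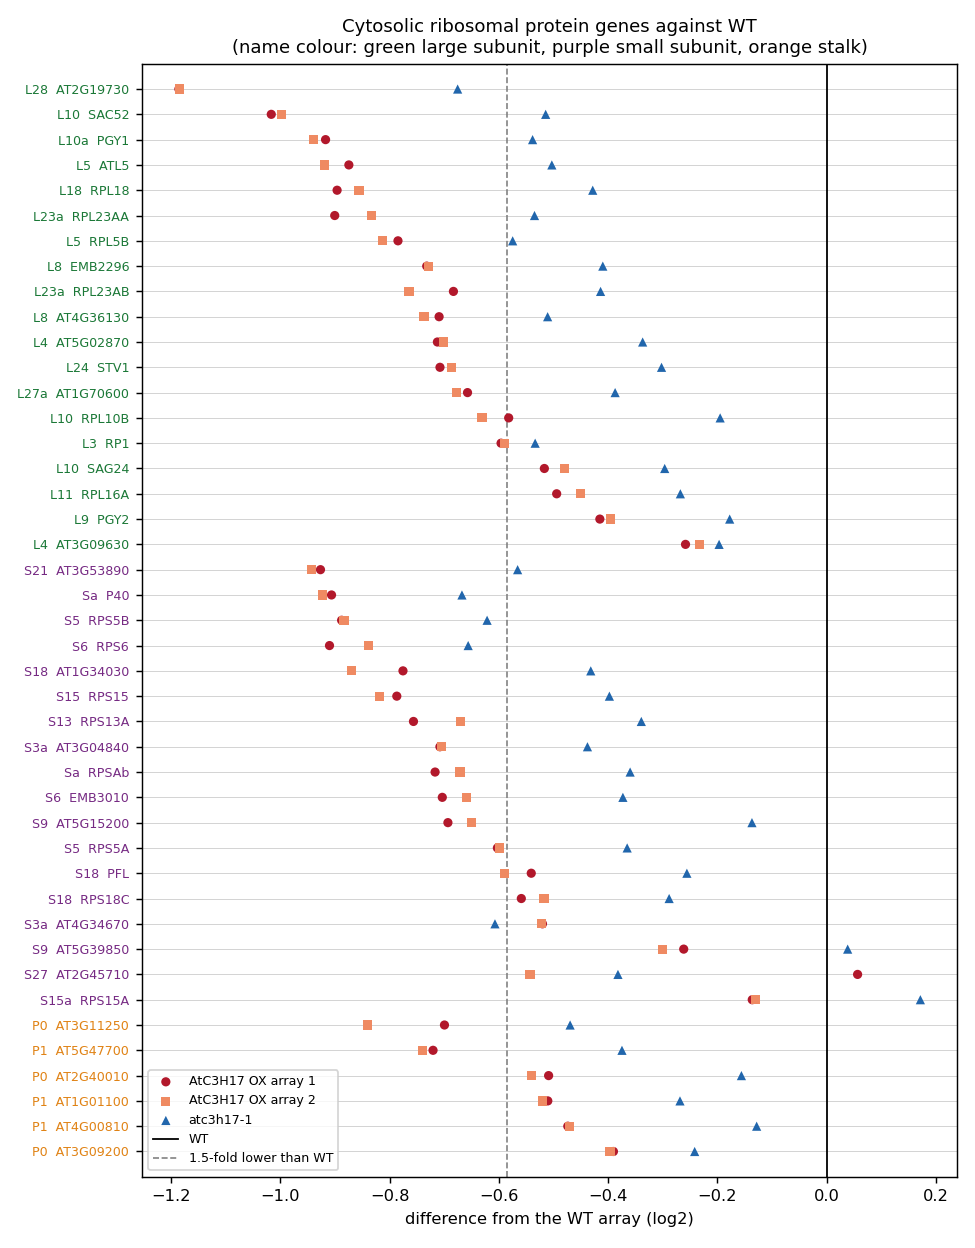
Difference from the WT array (log2, horizontal axis) of each of the 43 genes (rows, grouped into large subunit, small subunit and stalk) on AtC3H17 OX array 1 (circles), AtC3H17 OX array 2 (squares) and the atc3h17-1 array (triangles), with WT as the line at 0 and the dashed line at 1.5-fold lower. The 28 genes called lower in AtC3H17 OX have both of its points left of the dashed line, and most triangles lie between these points and 0; with normexp background correction 3 genes change sign in AtC3H17 OX.

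Set directly against atc3h17-1, without the WT array, AtC3H17 OX had lower levels on both of its arrays for 41 of the 43 genes, against 47.3% of all genes, and higher ones for 1, against 45.1%. The median difference was -0.31, or 0.807-fold, against -0.01 over all genes. No member reached 1.5-fold, with 0 lower and 0 higher, against 3.45% and 6.3% of all genes. At 2-fold the counts were likewise 0 and 0, against 1.66% and 2.8%. The order AtC3H17 OX below atc3h17-1 below WT held for 39 of the 43 genes, on both AtC3H17 OX arrays, against 24.2% of all genes. The 4 exceptions were AT2G45710, AT4G34670, RPS15A and AT5G39850, all of the small subunit. With normexp background correction the order held for 33 genes, against 26.7% of all genes in that setting.

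**Figure D2:**
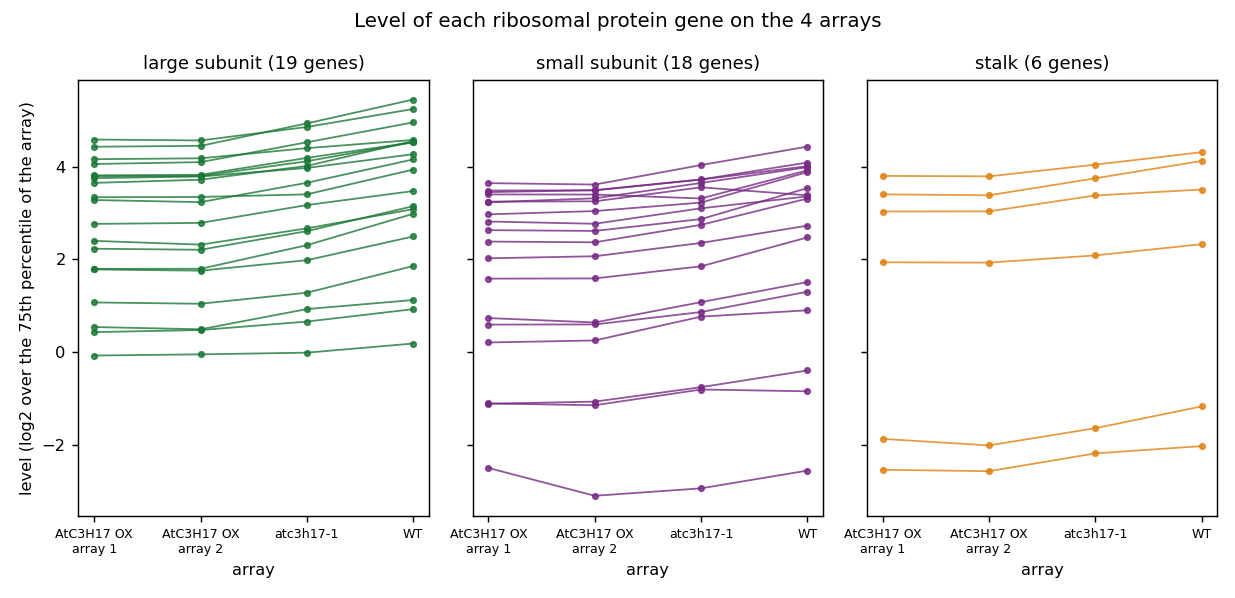
Level of each of the 43 genes (log2 over the array's 75th percentile, vertical axis) on the 4 arrays (horizontal axis, AtC3H17 OX arrays 1 and 2, atc3h17-1, WT), 1 line per gene, in panels for the 19 large subunit, 18 small subunit and 6 stalk genes. Most lines run nearly flat between the AtC3H17 OX arrays and climb through atc3h17-1 to WT.

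In the large subunit, all 19 genes were below WT in both lines, with medians of -0.72 in AtC3H17 OX and -0.41 in atc3h17-1. Called lower were 14 of the 19 in AtC3H17 OX, against 9.69% of all genes, and 1 (5.26%) in atc3h17-1, below the 8.65% of all genes. For the 11 genes whose subunit the reference table names, the medians were -0.72 and -0.43. Directly between AtC3H17 OX and atc3h17-1, the median of the 19 was -0.32.

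AT2G19730, of the L28 family, had the largest difference of the 43 in both comparisons with WT. Its level was 1.80 on each AtC3H17 OX array, 2.31 in atc3h17-1 and 2.98 in WT, which gives -1.19 for AtC3H17 OX and -0.68 for atc3h17-1. Between AtC3H17 OX and atc3h17-1 its difference was -0.51, which did not reach 1.5-fold. Its value rests on 1 probe.

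In yeast, L10 joins the large subunit late in its assembly, and its member SAC52 is known as the suppressor of acaulis mutants, which fail to elongate their stems. SAC52 had levels of 4.43 and 4.45 in AtC3H17 OX, 4.93 in atc3h17-1 and 5.44 in WT, with differences of -1.01 and -0.51. SAG24, a copy named for its induction in senescence, had 3.75 and 3.79 in AtC3H17 OX, 3.97 in atc3h17-1 and 4.27 in WT, with differences of -0.50 and -0.30. RPL10B had 0.54 and 0.49 in AtC3H17 OX, 0.93 in atc3h17-1 and 1.12 in WT, with differences of -0.61 and -0.19. The copies thus kept the same order of genotypes but differed in size. SAC52 and SAG24 lay 0.51 apart in AtC3H17 OX, the only family with a gap over 0.5 between its members in that line, and no family had such a gap in atc3h17-1. Each L10 gene had 1 probe. Copies of a family can share sequence, and whether a probe also binds the transcripts of another copy was not tested.

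L5 carries the 5S ribosomal RNA into the large subunit. ATL5, also called PIGGYBACK3 for its effect on leaf polarity, had levels of 3.28 and 3.23 in AtC3H17 OX, 3.65 in atc3h17-1 and 4.15 in WT, with differences of -0.90 and -0.50. RPL5B had 1.07 and 1.04 in AtC3H17 OX, 1.28 in atc3h17-1 and 1.86 in WT, with differences of -0.80 and -0.57. Both copies were lower in each line by similar amounts. RPL16A, of the L11 family, which binds the same RNA, had 0.43 and 0.48 in AtC3H17 OX, 0.66 in atc3h17-1 and 0.93 in WT, with differences of -0.47 and -0.27. It did not reach 1.5-fold.

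The PIGGYBACK genes were found through leaf polarity. PGY1, of the L10a family, had 2.23 and 2.21 in AtC3H17 OX, 2.61 in atc3h17-1 and 3.15 in WT, with differences of -0.93 and -0.54. PGY2, of the L9 family, had 4.16 and 4.18 in AtC3H17 OX, 4.40 in atc3h17-1 and 4.57 in WT, with differences of -0.41 in AtC3H17 OX and -0.18 in atc3h17-1, where normexp gave 0.05. PGY1 was among the genes with the largest differences in AtC3H17 OX, and PGY2 among those not called. In that line the 2 probes of PGY1 gave -1.12 and -0.73, and those of PGY2 -0.63 and -0.18. STV1, a gene of L24 named for the short valves of its mutant fruit and known for its part in translation after upstream reading frames, had 2.76 and 2.79 in AtC3H17 OX, 3.17 in atc3h17-1 and 3.47 in WT, with differences of -0.70 and -0.30. The 3 genotypes kept the same order in all of these genes.

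L23a lies at the exit of the peptide tunnel. RPL23AA had 3.65 and 3.72 in AtC3H17 OX, 4.01 in atc3h17-1 and 4.55 in WT, with differences of -0.87 and -0.53. RPL23AB had 2.40 and 2.32 in AtC3H17 OX, 2.67 in atc3h17-1 and 3.08 in WT, with differences of -0.72 and -0.41. Both copies were called lower in AtC3H17 OX and neither in atc3h17-1. RPL18, for L18, had 4.06 and 4.10 in AtC3H17 OX, 4.52 in atc3h17-1 and 4.95 in WT, with differences of -0.88 and -0.43, and its 3 probes stood behind the value.

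L3 and L8 lie near the centre where peptide bonds form. RP1, the L3 gene, had 3.34 and 3.35 in AtC3H17 OX, 3.40 in atc3h17-1 and 3.93 in WT, with differences of -0.59 and -0.53. The lines were thus nearly level with each other, but the 2 probes of RP1 gave -0.26 and 0.14 for AtC3H17 OX against atc3h17-1. EMB2296, an L8 gene needed for embryo development, had 3.79 and 3.80 in AtC3H17 OX, 4.11 in atc3h17-1 and 4.52 in WT, with differences of -0.73 and -0.41. Its copy AT4G36130 had 1.78 and 1.76 in AtC3H17 OX, 1.98 in atc3h17-1 and 2.49 in WT, with differences of -0.72 and -0.51. The L8 copies lay 0.01 apart in AtC3H17 OX.

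The L4 copies differed more. AT5G02870 had 3.81 and 3.82 in AtC3H17 OX, 4.19 in atc3h17-1 and 4.52 in WT, with differences of -0.71 and -0.34. AT3G09630 had -0.07 and -0.05 in AtC3H17 OX, -0.01 in atc3h17-1 and 0.19 in WT, with differences of -0.25 and -0.20. Its 3 probes ranged from -0.47 to 0.00 in AtC3H17 OX and from -0.41 to 0.16 in atc3h17-1, so that its direction depended on the probe. AT1G70600, of the L27a family, had 4.58 and 4.56 in AtC3H17 OX, 4.85 in atc3h17-1 and 5.24 in WT, with differences of -0.67 and -0.39.

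In the small subunit, all 18 genes were below WT in AtC3H17 OX and 16 in atc3h17-1, with medians of -0.69 and -0.38. Called lower were 12 of the 18 (66.7%) in AtC3H17 OX and 4 (22.2%) in atc3h17-1, against 9.69% and 8.65% of all genes. For the 11 genes whose subunit the reference table names, the medians were -0.69 and -0.37. Directly between AtC3H17 OX and atc3h17-1, the median of the 18 was -0.31.

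S6 is the ribosomal protein phosphorylated by the S6 kinases that act under TOR, the growth regulator. RPS6 had 2.97 and 3.04 in AtC3H17 OX, 3.22 in atc3h17-1 and 3.88 in WT, with differences of -0.87 and -0.66. EMB3010, the second S6 gene, had 2.02 and 2.07 in AtC3H17 OX, 2.35 in atc3h17-1 and 2.73 in WT, with differences of -0.68 and -0.37. RPS6 was called lower in both lines and EMB3010 in AtC3H17 OX.

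S5 is encoded by RPS5A, the Minute-like gene whose promoter is used to mark dividing cells, and by RPS5B, whose expression is known from differentiating cells. RPS5A had 3.48 and 3.49 in AtC3H17 OX, 3.72 in atc3h17-1 and 4.09 in WT, with differences of -0.60 and -0.37. RPS5B had 1.58 and 1.59 in AtC3H17 OX, 1.85 in atc3h17-1 and 2.47 in WT, with differences of -0.89 and -0.62. Each rests on 3 probes, and RPS5B had the larger difference in both lines, by 0.28 and 0.26.

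The 2 genes of SA, the protein known in animals as a laminin receptor, were P40 and RPSAb. P40 had 2.63 and 2.61 in AtC3H17 OX, 2.87 in atc3h17-1 and 3.54 in WT, with differences of -0.91 and -0.67. RPSAb had -1.11 and -1.07 in AtC3H17 OX, -0.75 in atc3h17-1 and -0.39 in WT, with differences of -0.69 and -0.36. P40 was called lower in both lines and RPSAb in AtC3H17 OX.

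S18 and S13 are the proteins of the pointed first leaves mutants. PFL, an S18 gene, had 2.82 and 2.77 in AtC3H17 OX, 3.10 in atc3h17-1 and 3.36 in WT, with differences of -0.57 and -0.26 that turned to 0.13 and 0.43 with normexp. AT1G34030, of the same family, had 0.74 and 0.64 in AtC3H17 OX, 1.08 in atc3h17-1 and 1.51 in WT, with differences of -0.82 and -0.43. The third copy, RPS18C, had 3.45 and 3.49 in AtC3H17 OX, 3.72 in atc3h17-1 and 4.01 in WT, with differences of -0.54 and -0.29. Of the 3 copies, AT1G34030 reached 1.5-fold in AtC3H17 OX and the others did not. The 2 probes of RPS18C gave -0.29 and -0.79 there, so that the contrast depended on the probe. RPS13A, for S13, had 3.23 and 3.32 in AtC3H17 OX, 3.65 in atc3h17-1 and 3.99 in WT, with differences of -0.71 and -0.34.

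AT3G53890, of the S21 family, had 2.38 and 2.37 in AtC3H17 OX, 2.74 in atc3h17-1 and 3.31 in WT, with differences of -0.93 and -0.57, the largest of the small subunit in AtC3H17 OX. RPS15, for S15, had 3.64 and 3.61 in AtC3H17 OX, 4.03 in atc3h17-1 and 4.43 in WT, with differences of -0.80 and -0.40. In both genes, atc3h17-1 lay between AtC3H17 OX and WT. AT3G04840, of the S3a family, had 0.59 and 0.60 in AtC3H17 OX, 0.87 in atc3h17-1 and 1.30 in WT, with differences of -0.71 and -0.44. AT5G15200, of the S9 family, had 0.21 and 0.25 in AtC3H17 OX, 0.77 in atc3h17-1 and 0.90 in WT, with differences of -0.67 and -0.14. Its mean over 2 probes had the largest difference of the 43 between AtC3H17 OX and atc3h17-1, at -0.53. The bright probe gave -0.41 there, and the dim one, at levels from -4.36 to -3.67, gave -0.66. For atc3h17-1 minus WT these probes gave -0.35 and 0.07, so that this direction depended on the probe.

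The 4 genes out of order each had 1 probe. RPS15A, for S15a, had 3.24 and 3.25 in AtC3H17 OX, 3.55 in atc3h17-1 and 3.38 in WT, so that the mutant was highest, with differences of -0.13 and 0.17. AT5G39850, of the S9 family, had -1.10 and -1.14 in AtC3H17 OX, -0.80 in atc3h17-1 and -0.84 in WT, with differences of -0.28 and 0.04, and normexp gave 0.18 for AtC3H17 OX. After removal of the position trend, atc3h17-1 minus WT was -0.01 for RPS15A and -0.20 for AT5G39850. AT4G34670, of the S3a family, had 3.40 on each AtC3H17 OX array, 3.31 in atc3h17-1 and 3.92 in WT, with differences of -0.52 and -0.61, so that the mutant was lowest. AT2G45710, of the S27 family, had -2.49 and -3.09 in AtC3H17 OX, -2.93 in atc3h17-1 and -2.55 in WT, with differences of -0.24 and -0.38. It was the one member whose AtC3H17 OX arrays lay further apart than 0.5, at 0.60, a gap that covers the levels of the other genotypes.

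The 6 stalk genes were all below WT in both lines, with medians of -0.52 in AtC3H17 OX and -0.25 in atc3h17-1. Called lower were 2 of the 6 in AtC3H17 OX and 0 in atc3h17-1, against 9.69% and 8.65% of all genes, counts too small to set against these shares. Directly between AtC3H17 OX and atc3h17-1, the median was -0.32, close to that of the subunits. The stalk families are not named in the reference table.

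P0 anchors the stalk to the ribosome. AT3G11250 had -1.87 and -2.01 in AtC3H17 OX, -1.64 in atc3h17-1 and -1.17 in WT, with differences of -0.77 and -0.47. AT2G40010 had -2.53 and -2.56 in AtC3H17 OX, -2.18 in atc3h17-1 and -2.02 in WT, with differences of -0.52 and -0.16. The first of these was called lower in AtC3H17 OX and the second was not, each from 1 probe. AT3G09200 had 1.94 and 1.93 in AtC3H17 OX, 2.09 in atc3h17-1 and 2.33 in WT, with differences of -0.39 and -0.24 that turned to 0.04 and 0.19 with normexp. Its 4 probes ranged from -0.76 to -0.02 in AtC3H17 OX and from -0.70 to 0.19 in atc3h17-1.

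P1 pairs with P2 on the arm. AT5G47700 had 3.40 and 3.38 in AtC3H17 OX, 3.75 in atc3h17-1 and 4.12 in WT, with differences of -0.73 and -0.37. AT1G01100 had 3.80 and 3.79 in AtC3H17 OX, 4.04 in atc3h17-1 and 4.31 in WT, with differences of -0.52 and -0.27. AT4G00810 had 3.03 and 3.04 in AtC3H17 OX, 3.38 in atc3h17-1 and 3.51 in WT, with differences of -0.47 and -0.13. AT5G47700 was called lower in AtC3H17 OX and the other two were not. In AT4G00810, 1 of 4 probes ran the other way, at 0.10 in AtC3H17 OX and 0.39 in atc3h17-1, against -0.83 to -0.46 and -0.43 to -0.19 for the others.

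Over single probes, the genes had 84 on the array, of which 83 were kept. Below WT were 81 of the 83 probes in AtC3H17 OX, against 51.4% of all probes, and 77 in atc3h17-1, against 52.6%. AtC3H17 OX was below atc3h17-1 in 79 of the 83, against 49.9%. In the 25 genes with several probes, every probe was below WT for 23 genes in AtC3H17 OX and 21 in atc3h17-1. The median range between probes of a gene was 0.22 and 0.25 in these comparisons, against 0.27 and 0.26 over all genes, and 0.07 for AtC3H17 OX against atc3h17-1, against 0.14. Values that leave out the WT array thus varied less between probes.

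Other genes of like brightness lay near 0. Among 2717 other genes whose mean level lay in the interquartile range of the 43, from 1.15 to 3.68, the median difference was -0.03 in AtC3H17 OX and -0.04 in atc3h17-1, against -0.72 and -0.50 for the 21 members in that range. At least 1.5-fold lower in AtC3H17 OX were 6.15% of these other genes, and in atc3h17-1 2.72%. Between AtC3H17 OX and atc3h17-1 the medians were -0.31 for the 21 members and -0.01 for the other genes.

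**Figure D3:**
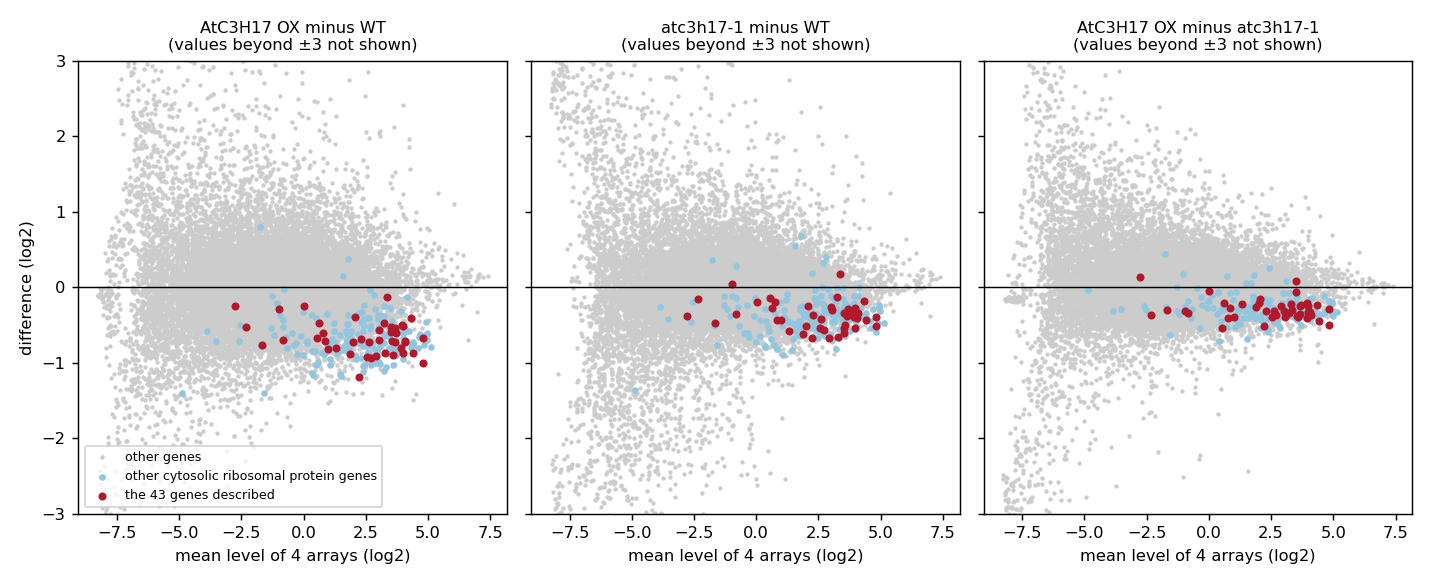
Difference (log2, vertical axis) against the mean level over the 4 arrays (log2 over the 75th percentile, horizontal axis) for every gene, in panels for AtC3H17 OX minus WT, atc3h17-1 minus WT and AtC3H17 OX minus atc3h17-1, with the 43 genes in red, other cytosolic ribosomal protein genes in light blue and all other genes in grey; values beyond 3 in either direction are not drawn. The red and blue points lie mostly below 0 in each panel, while the grey points at the same level lie about 0.

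The other cytosolic ribosomal protein genes, a list of 180 loci of which 167 were measured, had nearly the same medians as the 43, at -0.71 in AtC3H17 OX, -0.39 in atc3h17-1 and -0.31 between the lines. Called lower were 108 of 167 (64.7%) in AtC3H17 OX and 28 (16.8%) in atc3h17-1, against 9.69% and 8.65% of all genes. Called higher was 1 in each, against 10.1% and 8.89%. The lowest in AtC3H17 OX were AT1G23410 at -1.40 and AT5G59240 at -1.40, followed by RPL24A, the other gene of L24, at -1.18. The value of AT5G59240 rests on 1 dim probe, at -5.11 and -5.35 in AtC3H17 OX and -3.83 in WT. RPL24A had 1.05 on each AtC3H17 OX array, 1.74 in atc3h17-1 and 2.23 in WT, in the same order as its relative STV1. Of the genes above WT in AtC3H17 OX, AT3G28500 had the largest difference, at 0.81, a gene named after its value was seen.

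Ribosomal proteins of the plastid, which are made for a separate ribosome of bacterial type, were nearer to WT. The 35 genes had medians of -0.24 in AtC3H17 OX and -0.11 in atc3h17-1. Below WT were 30 of them (85.7%) in AtC3H17 OX and 24 (68.6%) in atc3h17-1, against 53.0% of all genes in each. Called lower were 1 (2.86%) and 0, against 9.69% and 8.65% of all genes. The one called, RPL24 of the plastid, had 3.74 and 3.73 in AtC3H17 OX, 4.00 in atc3h17-1 and 4.35 in WT. It differed by -0.61 and -0.35. AT4G01310 was above WT in both lines, by 0.31 and 0.40. The median of the 35 genes between the lines was -0.18, and 30 of them were lower in AtC3H17 OX, against 51.2% of all genes.

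Genes of ribosome biogenesis, which process ribosomal RNA and assemble the subunits, were measured for 36 of 37 loci, with medians of -0.30 in AtC3H17 OX and -0.32 in atc3h17-1. Called lower were 6 (16.7%) and 5 (13.9%), against 9.69% and 8.65% of all genes, and called higher 2 and 2, against 10.1% and 8.89%. FIB2, a fibrillarin that methylates ribosomal RNA, had -0.96 and -0.92 in AtC3H17 OX, -0.97 in atc3h17-1 and 0.22 in WT, with differences of -1.16 and -1.19. LSG1-1 (AT2G27200), the relative of a yeast factor that releases the large subunit for translation, had -1.37 and -1.36 in AtC3H17 OX, -1.35 in atc3h17-1 and -2.54 in WT, with differences of 1.18 and 1.20. Both genes set the lines apart from WT and not from each other, and the median of the list between the lines was -0.01. Each of the 2 genes rests on 1 probe, and their differences in both lines share the error of the noisier WT array.

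The 35 translation factor genes had medians of -0.38 in AtC3H17 OX and -0.31 in atc3h17-1, with 5 (14.3%) and 1 (2.86%) called lower, against 9.69% and 8.65% of all genes. Their median between the lines was -0.01, or -0.11 with the brightest probe of each gene. EIF3G1, a subunit of the initiation factor that holds the small subunit, had 1.98 and 2.03 in AtC3H17 OX, 2.37 in atc3h17-1 and 2.88 in WT, with differences of -0.88 and -0.51. LSP1, the plant isoform of the cap-binding protein, had 0.84 on each AtC3H17 OX array, 1.01 in atc3h17-1 and 1.69 in WT, with differences of -0.84 and -0.67. Between the lines, the 43 genes and the other cytosolic ribosomal protein genes each had a median of -0.31, and the plastid ones -0.18. No list was tested against another.

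**Figure D4:**
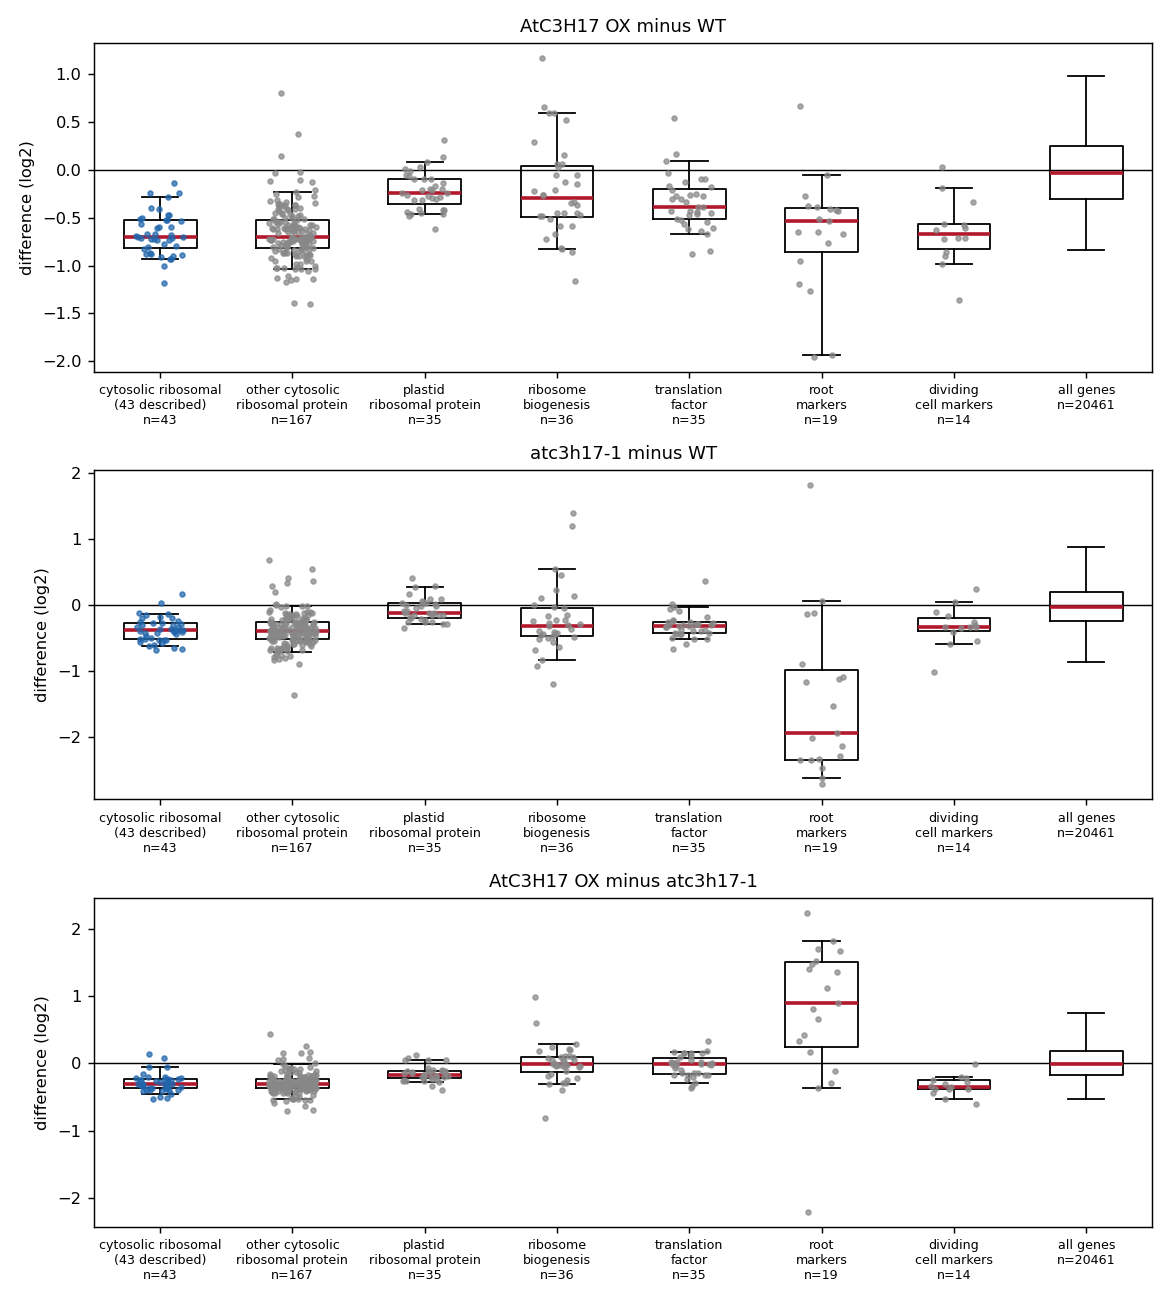
Differences (log2, vertical axis) by gene list (horizontal axis) in AtC3H17 OX minus WT, atc3h17-1 minus WT and AtC3H17 OX minus atc3h17-1, 1 point per gene, with boxes from the lower to the upper quartile, red lines at the median and whiskers from the 5th to the 95th percentile; single points are not drawn for all genes. Most of the cytosolic ribosomal protein genes lie below 0 in each panel (of the 43, all in the first and 41 in each of the others). The medians of the 43 are -0.70, -0.38 and -0.31. In the lowest panel, ribosome biogenesis and translation factor genes have a median of -0.01 and plastid ribosomal protein genes one of -0.18.

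Most markers of dividing cells were, like the ribosomal protein genes, below WT in both lines. Of 14 marker genes, all detected on every array, 13 were below WT in AtC3H17 OX and 12 in atc3h17-1, against 53.0% of all genes in each, with medians of -0.67, -0.33 and, between the lines, -0.35. Their summed signal relative to the 75th percentile was 5.87 and 5.86 in AtC3H17 OX, 7.31 in atc3h17-1 and 9.20 in WT, in the order of the ribosomal protein genes. CYCB1;1, the mitotic cyclin, had -3.29 and -3.39 in AtC3H17 OX, -3.00 in atc3h17-1 and -1.98 in WT, and SYP111, the syntaxin of the cell plate, differed by -0.90 and -0.55. The exceptions, named after their values were seen, were CDKB2;2 and CYCD3;1. CDKB2;2 was above WT by 0.03 in AtC3H17 OX and 0.24 in atc3h17-1, and CYCD3;1 by 0.05 in atc3h17-1. The part of dividing cells in the difference of the ribosomal protein genes was not tested.

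Root markers ran in another order. Of 19 measured of 20, 18 were below WT in AtC3H17 OX and 17 in atc3h17-1, against the same 53.0%, with medians of -0.53 and -1.94, and 0.89 between the lines. Their summed signal was 3.99 and 3.88 in AtC3H17 OX, 2.24 in atc3h17-1 and 6.16 in WT, so that it was lowest in atc3h17-1. CASP1, a membrane scaffold of the Casparian strip in the root endodermis, had -0.11 and -0.12 in AtC3H17 OX, -1.82 in atc3h17-1 and 0.65 in WT. Not all markers had this order: 15 of the 19 were higher in AtC3H17 OX than in atc3h17-1 and 4 were lower. The lowest of these 4, PLT1 at -2.21, was named after its value was seen. Its probe was not well above background on every array, with levels of -7.06 and -7.11 in AtC3H17 OX and -6.70 in WT against -4.87 in atc3h17-1. CASP4 and CASP5, both counted as below WT, were likewise not well above background on every array, at -6.56 and -7.20 in atc3h17-1. The sizes of the differences of these genes are therefore uncertain. Well above background were 18 of the 19 on each AtC3H17 OX array, 17 in atc3h17-1 and 18 in WT. The part of root tissue in the difference of the ribosomal protein genes was not tested.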

How the data were processed

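Whole seedlings of 3 genotypes were measured on 4 one-colour Agilent 4x44K arrays, on 1 slide read in 1 scan, so no batch could be tested; 1 µg of RNA was labelled with Cy3 per the labels. Per the file headers, the authors' spot intensity values, the processed signal, came from Agilent Feature Extraction 11.0.1.1, background-subtracted and detrended on each array, with design TAIR10:Nov2010. The deposited marks of 0 or 1 per spot, a score per the file headers, record signal well above background and outliers. The authors' series table holds the same linear intensity, unscaled and uncentred, for most of its 43603 probes, with medians of 620 and 611 (AtC3H17 OX), 580 (atc3h17-1) and 616 (WT). In 43 and 45 (AtC3H17 OX), 46 (atc3h17-1) and 49 (WT) probes it differed from the scanner value by over 0.01 on the log2 scale, by up to 4.61.

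From the deposited intensities, log2 values minus each array's 75th percentile were computed with Python 3.11.15, numpy 2.4.6 and pandas 2.3.3, and plots drawn with matplotlib 3.10.9. Outlier and control spots were left out, repeated spots averaged, and probes kept where all arrays of a genotype, any 1 of the 3, marked them well above background. Of 43603 probes, 34348 matched 1 locus of the TAIR10.1 table; with the filter, 32969 of all probes were kept, giving 20461 genes, 14403 of them from 1 probe. Coordinates are not printed because the builds differ.

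Members and the 6 comparison lists were chosen with earlier results of these data known, so their directions are no independent evidence. One listed locus was left out because its reference symbol names another protein. Values on all arrays are given for members at least 1.5-fold from WT, for the 5 highest and 5 lowest of each comparison and for unlike paralogs; other lists give up to 4 genes. Calls are by size, with 1 sample a group. limma 3.58.1 in R 4.3.3, with the AtC3H17 OX arrays as replicates, served only as an alternative and was tested on simulated data. The planned search of promoters for motifs was not run because no sequences were used here. The number of arrays limits the precision. Other settings are given in the closing section.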

Additional observations from a re-analysis of the deposited data

How the results depend on the processing

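The median difference of the 43 genes stayed between -0.78 and -0.66 in AtC3H17 OX against WT over 12 other settings, between -0.50 and -0.36 in atc3h17-1 against WT over 10, and between -0.34 and -0.30 in AtC3H17 OX against atc3h17-1 over 12. Called lower were 26 to 31 genes in AtC3H17 OX against WT (7.35% to 11.1% of all genes), 3 to 11 in atc3h17-1 against WT (6.10% to 10.5%) and 0 in AtC3H17 OX against atc3h17-1 (2.04% to 4.29%). In atc3h17-1 the count was 11 with normexp background correction, which used the median spot signal, and 3 with quantile normalization or with the position trend removed; the cause was not tested. At 2-fold, 1 gene was called lower in AtC3H17 OX and 0 in atc3h17-1. By mean level, 40 to 43 of the 43 were below WT in AtC3H17 OX and 35 to 43 in atc3h17-1. The order AtC3H17 OX below atc3h17-1 below WT held for 33 to 41 genes, against 23.1% to 27.6% of all genes. Of the 28 calls in AtC3H17 OX, 22 stayed past 1.5-fold in every setting, and RP1, AT3G04840, RPS5A, STV1, AT3G53890 and EMB3010 did not. The median of the translation factor genes between the lines was -0.11 with the brightest probe of each gene, against -0.01.

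With limma and the AtC3H17 OX arrays as replicates, 42 genes passed an adjusted p of 0.05 as lower, as did 36.1% of all genes, and 29 members with 1.5-fold added; these p-values rest on 2 arrays that differ by less than spot noise. Without AtC3H17 OX array 1 the median was -0.68 against WT with 30 calls, and -0.31 against atc3h17-1 with 0 calls. Without array 2 these were -0.70 with 28 calls, and -0.30 with 0 calls. By list, leaving out 1 array gave -0.73 to -0.71 for the large subunit, -0.71 to -0.67 for the small subunit, -0.53 to -0.51 for the stalk, -0.71 to -0.69 for other cytosolic ribosomal protein genes, -0.24 to -0.23 for plastid ones, -0.34 to -0.32 for biogenesis and -0.37 to -0.35 for translation factors against WT. Against atc3h17-1 the last 4 lists gave -0.31 to -0.31, -0.17 to -0.17, -0.0044 to 0.02 and -0.02 to -0.0029. AT2G45710 stood at 0.06 against WT without array 2 of AtC3H17 OX, and at -0.16 against atc3h17-1 without array 1. With normexp, atc3h17-1 minus WT also turned to 0.19 for SAG24, 0.02 for AT2G40010 and 0.05 for AT3G09630.

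No paired analysis was possible because the replicate numbers of AtC3H17 OX have no partners in the other groups, which have 1 array each. Filters on dim probes could not act on the kept probes, since all 43 genes had every kept probe well above background on all arrays.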
